A study of Mus musculus with 6 samples.

Results

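The genes of the voltage-gated calcium and sodium channels were examined in the olfactory bulb (OB) of aged Tg2576 mice. Members were all genes whose symbol in the table of the array's platform names a pore-forming or auxiliary subunit of these channels (Cacna1, Cacna2d, Cacnb, Cacng, and Scn with the suffix a or b). This gave 35 genes, each with 1 probe set, among 22206 probe sets tested, of which 19572 carry 1 gene symbol. Cacnb3, Scn4a and Scn9a have no probe set under their symbol in that table and are therefore not among the 35. The transgenic animals were 3 female Tg2576 mice of 18 months, which carry a human amyloid precursor protein with the Swedish mutation under the hamster prion promoter, and the controls were 3 female wild-type (WT) mice of the same age. RNA of each animal's OB was hybridized to 1 Affymetrix mouse Clarion S array, and the values are log2 expression after the authors' RMA (robust multi-array average) normalization. In such bulk tissue, fewer cells of a type and less RNA per cell cannot be told apart.

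Voltage-gated channels open when the membrane depolarizes. Sodium channels carry the upstroke of the action potential, and calcium channels admit the calcium that triggers transmitter release, shapes firing and signals to the nucleus. A calcium channel is built from a large alpha1 subunit, which forms the pore, together with an intracellular beta subunit and an extracellular alpha2delta subunit, and a sodium channel from an alpha pore subunit with beta subunits of the immunoglobulin fold. In the OB, mitral and tufted cells fire sodium spikes, and granule cells release GABA from dendrites through calcium entry, so both families are part of its signalling between cells.

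The arrays were close to each other. Their medians lay between 8.18 and 8.22 over the tested probe sets, and their pairwise correlations (Pearson's r) over these probe sets were 0.992 to 0.995. Probe sets of OB cell types were present, as 18 of 18 interneuron markers and 7 of 9 mitral and tufted cell markers lay above the medians of the negative control probes, which were 6.78 to 6.91. Of the channel genes, 32 lay above these medians, and Cacna1f, Scn10a and Scn11a lay below them. Cacna2d4 was only just above, with a mean of 6.95 over the 6 arrays. Over all tested probe sets, 15972 of 22206 lay above these medians. Markers of the olfactory mucosa, tissue that lies next to the bulb, deviated from the WT mean by 1.21, -0.18 and 1.15 on average in Tg2576 replicates 1, 2 and 3, against -0.23, -0.087 and 0.32 in WT replicates 1, 2 and 3 (20 genes). Their part in the values of the channel genes was not tested.

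No channel gene was called different between Tg2576 and WT OBs. The call required a fold over 1.3 or under 0.7 and an unadjusted p under 0.01 in limma, which fits a linear model per probe set and draws its variance towards a common value. In either direction 0 of 35 genes passed, where 0.797% of all probe sets did (0.698% higher and 0.0991% lower in Tg2576 OBs). Without the fold threshold 0 channel genes passed too, against 2.11% of all probe sets. After Benjamini-Hochberg adjustment 0 channel genes and 0 probe sets in all passed at 0.05, and the smallest adjusted p of a channel gene was 0.559. At an unadjusted p under 0.05, limma had 3 channel genes, Scn3a, Cacna1e and Cacna1d, all with estimates below 0. That is 8.57% of the channel genes, where 8.54% of all probe sets had such a p (4.57% higher and 3.97% lower in Tg2576 OBs). The count of 3 changed when 1 array was left out. It was 0 without Tg2576 replicate 2, WT replicate 2 or WT replicate 3 and 1 without Tg2576 replicate 1. In these fits 6.87%, 8.17%, 7.22% and 6.74% of all probe sets had an unadjusted p under 0.05. limma-trend with robust moderation had 7 channel genes at an unadjusted p under 0.05, or 20.0%, against 8.66% of all probe sets. They were the same 3 genes together with Scn2b, Cacnb2, Cacnb4 and Cacng7, each with an estimate above 0.

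The differences of the channel genes were about as large as those of all probe sets, with a median size, whatever the sign, of 0.088 against 0.081 on the log2 scale. They ran from -0.19 to 0.18 on the log2 scale, with 21 above 0 and 14 below it, and a median of 0.011, against a median of -0.0049 over all probe sets. The 95% confidence interval of the difference lay wholly inside the fold thresholds of the call for 34 of the 35 genes, where it did so for 80.8% of all probe sets. The exception was Cacng4, whose interval reached a fold of 1.33. The median spread between replicates was lower than over all probe sets, with a pooled SD of 0.079 for the channel genes and 0.117 for all probe sets. Among those above the negative controls, the gap was smaller, with 0.078 for 32 channel genes and 0.105 for 15972 probe sets. The share of intervals inside the thresholds was not taken for that subset. The median distance from the estimate to an end of the interval was 0.19 on the log2 scale.

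**Figure D1:**
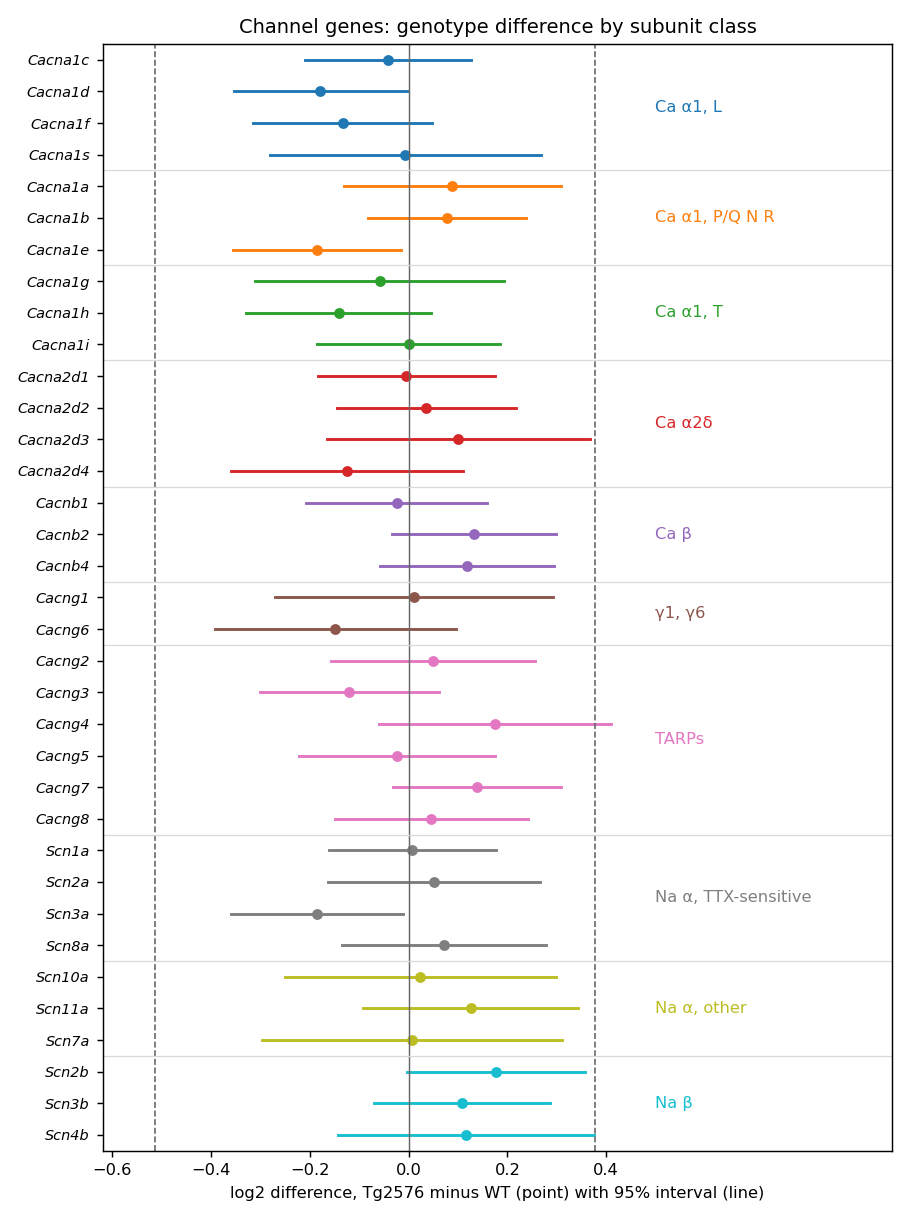
Log2 difference of Tg2576 minus WT OBs (horizontal axis) for each of the 35 channel genes, grouped by subunit class from top to bottom. Points are limma estimates, lines 95% confidence intervals (3 arrays per group), and dashed lines the fold thresholds of 0.7 and 1.3, which the interval of Cacng4 alone crosses.

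**Figure D2:**
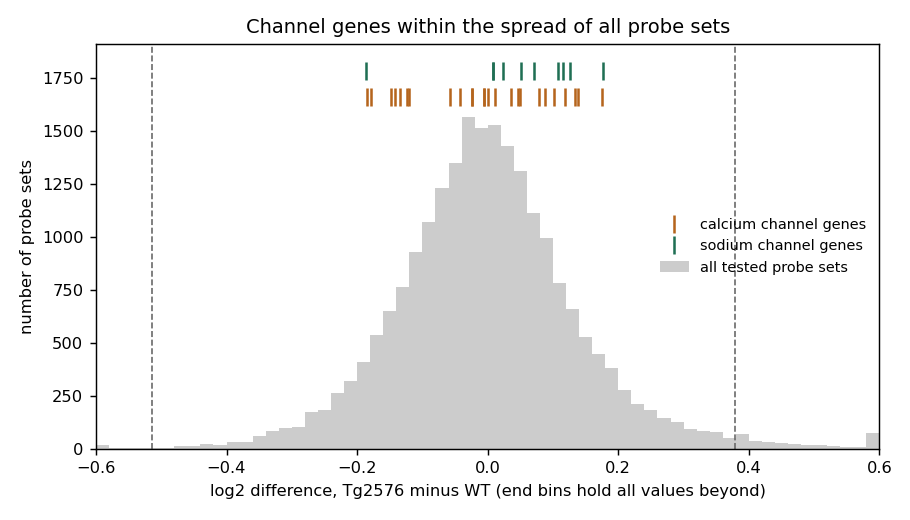
Number of tested probe sets (vertical axis) by log2 difference of Tg2576 minus WT OBs (horizontal axis), with a tick for each calcium and sodium channel gene above the bars. The 35 ticks lie between -0.19 and 0.18, and the dashed lines mark folds of 0.7 and 1.3.

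Although no gene was called, the arrays of both genotypes did not overlap for 10 channel genes, or 28.6%, where this held for 14.1% of all probe sets (7.03% with all Tg2576 arrays above and 7.03% with all below). In 5 of them (Cacna1d, Cacna1e, Cacna1f, Cacna1h and Scn3a) every Tg2576 array lay below every WT array, and in the other 5 (Cacna1b, Cacnb2, Cacng7, Scn2b and Scn3b) every Tg2576 array lay above. Of the first 5, Cacna1f lay below the negative controls. Among those above the negative controls, the arrays did not overlap for 9 of 32 channel genes (28.1%) and for 14.8% of 15972 probe sets. An exact test of 3 arrays against 3 cannot give a two-sided p under 0.1, so it cannot pass for any single gene.

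**Figure D3:**
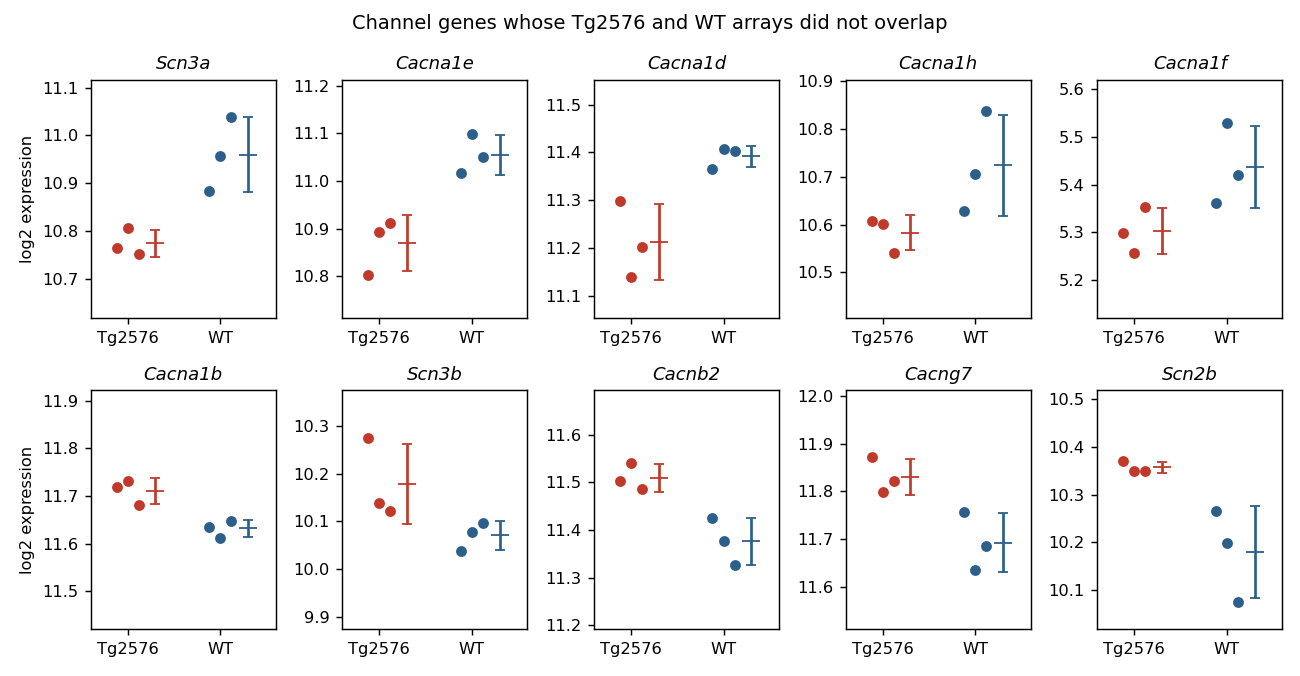
Log2 expression (vertical axes, each spanning the same range) of the 10 channel genes whose Tg2576 (left) and WT (right) arrays did not overlap. Points are single arrays, and the line with bars is the mean ± SD of 3 arrays. The top row holds the genes with all Tg2576 arrays lower, such as Scn3a, and the bottom row those with all Tg2576 arrays higher, such as Scn2b.

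Among the pore subunits of the high-voltage calcium channels of nerve terminals, Cacna1e had an estimate below 0 and Cacna1a and Cacna1b had estimates above 0. Cacna1e, the pore of R-type channels, was at 10.80, 10.89 and 10.91 in Tg2576 OBs and at 11.02, 11.10 and 11.05 in WT OBs. The highest Tg2576 array lay below the lowest WT array, and the log2 difference was -0.19 (95% confidence interval -0.36 to -0.015, limma adjusted p = 0.559). Cacna1b, the pore of N-type channels, was at 11.72, 11.73 and 11.68 in Tg2576 OBs, against 11.64, 11.61 and 11.65 in WT OBs. All Tg2576 arrays lay above the WT arrays, by a log2 difference of 0.078 (-0.082 to 0.24). Cacna1a, the pore of the P/Q-type channels that drive fast transmitter release, had a mean of 11.21 ± 0.12 in Tg2576 OBs, against 11.13 ± 0.12 in WT OBs (SD over 3 arrays), with overlapping arrays.

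All 4 L-type pore genes had an estimate below 0, from -0.18 to -0.0064, and 1 of them had an unadjusted p under 0.05. Cacna1d, whose channels open at more negative voltages than other L-type channels and take part in pacemaking, was at 11.30, 11.14 and 11.20 in Tg2576 OBs and at 11.37, 11.41 and 11.40 in WT OBs. The groups did not overlap, and the log2 difference was -0.18 (-0.35 to -0.0042, limma adjusted p = 0.578). Cacna1c, the main L-type pore gene of heart and brain, had a mean of 11.97 ± 0.034 in Tg2576 OBs, against 12.01 ± 0.053 in WT OBs (SD over 3 arrays), and its difference of -0.042 (-0.21 to 0.13) was smaller than the WT spread. Cacna1f, the L-type pore of photoreceptors, lay under the negative controls in every array, with 5.30, 5.26 and 5.35 in Tg2576 and 5.36, 5.53 and 5.42 in WT OBs. Cacna1s, the skeletal muscle L-type pore, differed by -0.0064 (-0.28 to 0.27).

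The channels of the 3 T-type pore genes open near the resting potential and support burst firing. Of these genes 0 were called, and 0 had an unadjusted p under 0.05 in limma. Cacna1h was at 10.61, 10.60 and 10.54 in Tg2576 OBs and at 10.63, 10.71 and 10.84 in WT OBs. The groups did not overlap, but the closest arrays of each genotype were nearly level, and the log2 difference was -0.14 (-0.33 to 0.046). Cacna1g differed by -0.058 (-0.31 to 0.19) and had its highest and its lowest value both in WT OBs. Cacna1i differed by 0.00031 (-0.19 to 0.19).

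The sequences around the start sites of 3 of these genes are shown because they belong to the lower and the higher members of smallest p. They are RefSeq windows of 300 bases on GRCm38.p6, from 250 bases before to 50 bases after the start, and the tables used here list such windows for 27 of the 35 genes, with Scn3a not among them. That of Cacna1e is chr1:154725871-154726170 on the minus strand. Those of Cacna1d, on the minus strand too, are chr14:30353437-30353736 and chr14:30491107-30491406, and that of Scn2b is chr9:45117626-45117925 on the plus strand. Capitals mark each match, on either strand, to the letters of the GC box (GGGCGG) or the TATA box (TATAAA) wherever they lie in the window, and another motif, the short cAMP response element TGACG, had no match in these windows.
Cacna1e promoter: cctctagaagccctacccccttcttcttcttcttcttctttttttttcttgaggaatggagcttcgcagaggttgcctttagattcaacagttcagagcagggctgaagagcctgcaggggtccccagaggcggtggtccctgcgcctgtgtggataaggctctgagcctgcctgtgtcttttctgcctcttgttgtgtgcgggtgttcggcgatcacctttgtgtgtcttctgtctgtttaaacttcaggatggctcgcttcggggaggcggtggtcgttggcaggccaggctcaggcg
Cacna1d promoter, GC-rich start: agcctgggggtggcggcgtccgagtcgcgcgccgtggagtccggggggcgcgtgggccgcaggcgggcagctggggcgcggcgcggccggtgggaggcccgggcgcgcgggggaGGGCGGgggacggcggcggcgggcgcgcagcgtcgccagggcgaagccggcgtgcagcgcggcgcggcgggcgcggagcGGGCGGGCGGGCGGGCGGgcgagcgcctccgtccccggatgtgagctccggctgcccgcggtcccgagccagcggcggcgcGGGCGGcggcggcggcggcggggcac
Cacna1d promoter, AT-rich start: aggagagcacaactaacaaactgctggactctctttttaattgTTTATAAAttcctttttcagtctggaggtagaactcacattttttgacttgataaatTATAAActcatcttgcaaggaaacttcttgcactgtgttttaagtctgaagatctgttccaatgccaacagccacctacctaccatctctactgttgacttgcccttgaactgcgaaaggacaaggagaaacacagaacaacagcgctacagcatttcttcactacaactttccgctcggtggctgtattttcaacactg
Scn2b promoter: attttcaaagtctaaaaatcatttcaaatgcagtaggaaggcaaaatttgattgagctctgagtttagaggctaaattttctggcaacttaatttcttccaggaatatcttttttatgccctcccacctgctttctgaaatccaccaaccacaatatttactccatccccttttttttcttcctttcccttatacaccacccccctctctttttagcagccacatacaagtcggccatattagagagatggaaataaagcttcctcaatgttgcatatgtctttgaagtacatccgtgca
The GC-rich window of Cacna1d is 87.3% G and C, and the other windows hold 55.3% (Cacna1e), 40.3% (Cacna1d, AT-rich start) and 38.3% (Scn2b). Over all windows of the channel genes, 14 of 37 hold the GC box (37.8%), against 35.7% of 32851 windows in the whole table, and 6 hold the short cAMP response element (16.2% against 20.8%). The letters TATAAA are in 2 (5.41% against 13.6%). A match or its absence says nothing about the binding of a factor.

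The auxiliary calcium channel subunits gave estimates on both sides of 0. The beta subunits bind the alpha1 subunit inside the cell and help it to the membrane. Cacnb2 was at 11.50, 11.54 and 11.49 in Tg2576 OBs and at 11.43, 11.38 and 11.33 in WT OBs, a log2 difference of 0.13 (-0.033 to 0.30, limma adjusted p = 0.663), with no overlap of the groups. Cacnb4 was at 12.47, 12.41 and 12.45 in Tg2576 OBs, against 12.30, 12.25 and 12.41 in WT OBs. There the highest WT array reached the lowest Tg2576 array, and the difference was 0.12 (-0.059 to 0.30). Cacnb1, the isoform of skeletal muscle that neurons also use, differed by -0.024 (-0.21 to 0.16).

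The alpha2delta subunits, extracellular proteins that bring channels to the surface, had no gene with separate groups. Cacna2d1 and Cacna2d2, the targets of gabapentin, differed by -0.0049 (-0.18 to 0.17) and 0.036 (-0.15 to 0.22). Cacna2d1 had a mean of 8.93 ± 0.028 in Tg2576 OBs, against 8.94 ± 0.090 in WT OBs (SD over 3 arrays), a difference smaller than either spread. Cacna2d3 differed by 0.10 (-0.17 to 0.37) and Cacna2d4 by -0.12 (-0.36 to 0.11). Single arrays moved these values, as Cacna2d3 was at 0.0037 without WT replicate 2 and 0.20 without WT replicate 1, and Cacna2d2 at 0.0043 without WT replicate 3 and 0.093 without WT replicate 2.

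Most of the Cacng genes encode transmembrane AMPA receptor regulatory proteins (TARPs), which regulate glutamate receptors of the AMPA type. Only Cacng1 and Cacng6 are tied to muscle-type calcium channels. Of 6 TARP genes, 4 had an estimate above 0 and 2 below. Cacng7 was at 11.87, 11.80 and 11.82 in Tg2576 OBs and at 11.76, 11.63 and 11.69 in WT OBs, without overlap, a log2 difference of 0.14 (-0.033 to 0.31, limma adjusted p = 0.660). Cacng4 was at 8.87, 8.90 and 8.89 in Tg2576 OBs, against 8.89, 8.51 and 8.74 in WT OBs. Its Tg2576 arrays were nearly level while WT replicate 1 lay among them, and the difference of 0.18 (-0.060 to 0.41) was 0.073 without WT replicate 2 and 0.26 without WT replicate 1. Cacng2, the gene of stargazin, the founding TARP, differed by 0.049 (-0.16 to 0.26), and Cacng8, a TARP of the hippocampus and forebrain, by 0.046 (-0.15 to 0.24). Cacng3 differed by -0.12 (-0.30 to 0.061) and Cacng5 by -0.024 (-0.22 to 0.17). Cacng6, outside the TARPs, was at 7.70, 7.67 and 8.01 in Tg2576 OBs, against 7.88, 8.03 and 7.93 in WT OBs, a difference of -0.15 (-0.39 to 0.095) that was -0.26 without Tg2576 replicate 3 and -0.087 without Tg2576 replicate 2. Cacng1 differed by 0.011.

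Of the 7 sodium channel pore genes among the 35, Scn3a had the difference farthest from 0. Scn3a, the brain channel most abundant around birth, was at 10.76, 10.81 and 10.75 in Tg2576 OBs and at 10.88, 10.96 and 11.04 in WT OBs. Every Tg2576 array lay below every WT array, by a log2 difference of -0.19 (-0.36 to -0.011, limma adjusted p = 0.563), or 12.1% less by the estimate. Its relatives of the adult brain had estimates nearer to 0, and that of Scn1a was below 0 after other normalizations of the arrays, at -0.0053 after median centring. Scn1a, the main sodium channel of many inhibitory neurons, had a mean of 10.19 ± 0.069 in Tg2576 OBs, against 10.18 ± 0.0019 in WT OBs (SD over 3 arrays), a difference of 0.0075 (-0.16 to 0.18). Scn2a, of axon initial segments and unmyelinated axons, differed by 0.051 (-0.16 to 0.27), and Scn8a, the channel of mature initial segments and nodes of Ranvier, by 0.071 (-0.13 to 0.28). Whether the difference of Scn3a departs from those of its relatives was not tested. Scn7a, an atypical channel that senses sodium, differed by 0.0075 (-0.30 to 0.31). Scn10a and Scn11a, channels of peripheral sensory neurons, lay below the negative controls and differed by 0.023 and 0.13.

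The 3 sodium channel beta subunits measured, adhesion proteins that set the gating and surface level of the pore, all had estimates above 0. Scn2b, which is linked to the pore by a disulfide bond, was at 10.37, 10.35 and 10.35 in Tg2576 OBs and at 10.27, 10.20 and 10.08 in WT OBs. The Tg2576 arrays were close together and above all WT arrays, and the log2 difference was 0.18 (-0.0036 to 0.36, limma adjusted p = 0.589), or 13.0% more by the estimate. Scn3b, a beta subunit that binds without such a bond, was at 10.28, 10.14 and 10.12 in Tg2576 OBs and at 10.04, 10.08 and 10.10 in WT OBs. The groups did not overlap, though Tg2576 replicate 3 and WT replicate 3 were nearly level, and the difference was 0.11 (-0.069 to 0.29). Scn4b, tied to resurgent sodium current, was at 7.55, 7.37 and 7.63 in Tg2576 OBs, against 7.19, 7.47 and 7.54 in WT OBs, with overlapping groups and a difference of 0.12 (-0.14 to 0.37). That of Scn4b was 0.012 without WT replicate 1 and 0.19 without Tg2576 replicate 2, and that of Scn3b was 0.060 without Tg2576 replicate 1.

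**Figure D4:**
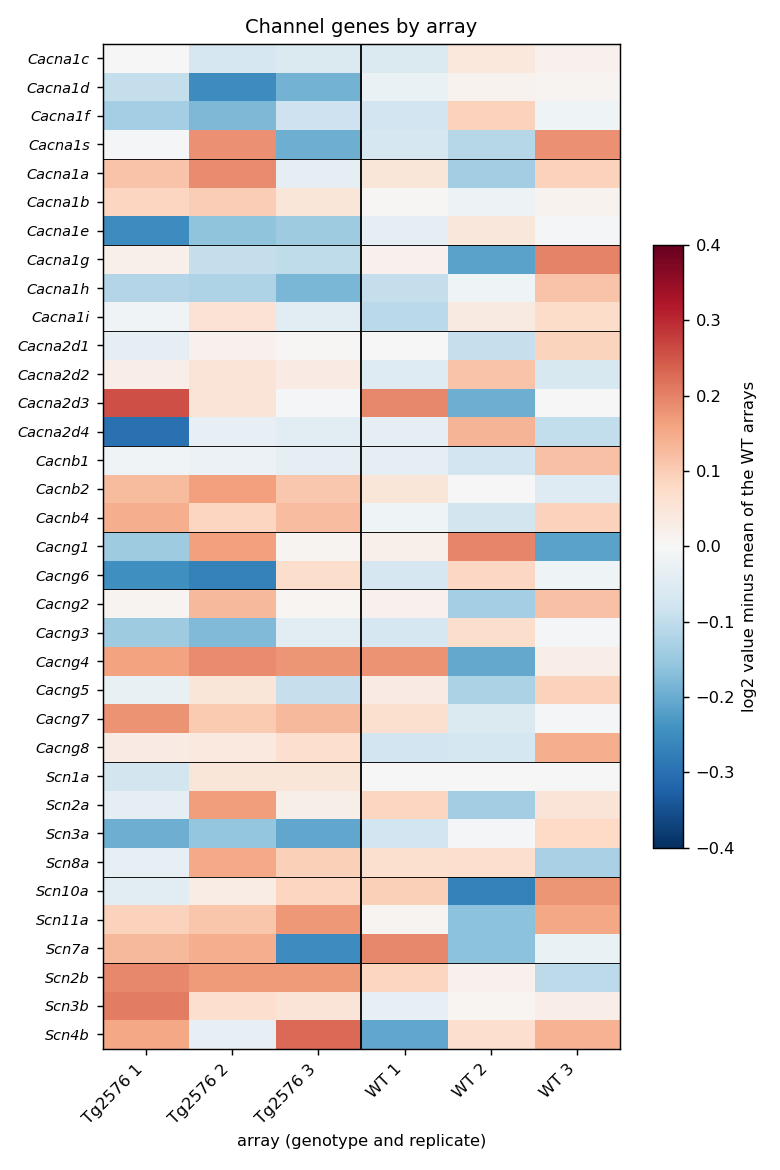
Log2 value of each channel gene in each array minus the mean of the 3 WT arrays (colour, blue lower and red higher), with Tg2576 arrays left of the vertical line and WT arrays right of it. Genes follow the order of their subunit classes, separated by horizontal lines. Scn3a, Cacna1d and Cacna1e are blue in all 3 Tg2576 arrays and Scn2b is red in them, while WT replicate 2 is blue for many genes of several classes.

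Across all 35 genes the arrays deviated together only slightly. The mean deviation from the WT mean was 0.00044, 0.026 and -0.0017 in Tg2576 replicates 1, 2 and 3, against 0.00053, -0.037 and 0.036 in WT replicates 1, 2 and 3. By these means both extremes were WT arrays. By medians Tg2576 replicate 2 was highest, at 0.050, and WT replicate 3 was at 0.026.

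Several channel genes are neighbours on their chromosome in RefSeq (GRCm38.p6) and are given side by side here, with no test of likeness. Scn3a and Scn2a lie next to each other on chromosome 2, with differences of -0.19 and 0.051, and Scn1a and Scn7a follow in the same region, both at 0.0075. Cacng7, Cacng8 and Cacng6 lie in a row on chromosome 7 and differed by 0.14, 0.046 and -0.15. Cacng1, Cacng4 and Cacng5 form a row on chromosome 11, at 0.011, 0.18 and -0.024. Scn2b and Scn4b are adjacent on chromosome 9 and were both above 0, at 0.18 and 0.12. In none of these clusters did every gene have separate groups.

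A pair of sodium channel genes outside the 35 could be named only through the study's own gene annotation, whose part read here covers the probe sets of smallest p in its comparison, so that they were chosen with their difference known. Scn9a, the main sodium channel of olfactory sensory neurons, which reach the OB with their axons, was at 8.53, 8.01 and 8.34 in Tg2576 OBs and at 7.76, 8.15 and 8.10 in WT OBs. Tg2576 replicate 2 lay within the WT range, and the log2 difference of 0.29 (-0.054 to 0.63, limma adjusted p = 0.644) was not called. Markers of the sensory neurons deviated from the WT mean by 0.41, 0.17 and 0.47 on average in Tg2576 replicates 1, 2 and 3, against -0.065, 0.047 and 0.018 in WT replicates 1, 2 and 3, and 5 of 24 were called higher, where 0.698% of all probe sets were. Both Scn9a and these markers were lowest in Tg2576 replicate 2 among the Tg2576 arrays, and the part of the markers in Scn9a was not tested. Scn4a, the channel of skeletal muscle, was below the negative controls, with 5.66, 5.34 and 5.50 in Tg2576 and 5.64, 5.86 and 5.98 in WT OBs, a difference of -0.33 (-0.59 to -0.060) that was not called.

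Proteins that anchor or regulate these channels were followed in lists drawn up by function. Of 17 measured genes of the axon initial segment, the node and the sodium channel's partners, 0 were called, 2 higher genes and 1 lower had an unadjusted p under 0.05 in limma (17.6%, against 8.54% of all probe sets), and the median difference was 0.012. L1cam, an adhesion molecule of axons that binds ankyrins, was at 11.46, 11.59 and 11.41 in Tg2576 OBs, against 11.19, 11.00 and 11.19 in WT OBs. The groups were well apart, and its difference of 0.36 (SE 0.089, limma adjusted p = 0.370) had an unadjusted p under 0.01 in limma but a fold under 1.3. Cntnap1, which encodes Caspr of the paranodal junction, differed by 0.36 (SE 0.12), and Fgf13, a cytoplasmic binding partner of sodium channels, by -0.30 (SE 0.12). Ank3, which encodes the ankyrin that holds sodium channels at the initial segment, differed by -0.069 (SE 0.073).

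Of 24 measured regulators of calcium channels, 0 were called and the median difference was -0.011. Cachd1, which encodes a protein related to alpha2delta subunits that enhances T-type currents, was at 9.61, 9.79 and 9.86 in Tg2576 OBs, against 9.42, 9.29 and 9.49 in WT OBs. Its groups did not overlap, and the difference was 0.35 (SE 0.096, limma adjusted p = 0.419), which again missed the fold threshold alone. Stac2, an adaptor of L-type channels, differed by -0.23 (SE 0.079), and these were the 2 genes of this list with an unadjusted p under 0.05 (8.33%, against 8.54% of all probe sets). Of 14 other cation channel genes, 0 were called and 2 had such a p (14.3%). Tpcn1, a cation channel of endolysosomes, differed by 0.28 (SE 0.088), and Unc79, a partner of the sodium leak channel, by -0.22 (SE 0.092).

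Markers of the cells that hold these channels were read from the same arrays. General neuronal markers had a median difference of 0.12 over 12 genes, interneuron markers -0.0012 over 18 genes and mitral and tufted cell markers 0.17 over 9 genes, of which 1 was called higher. Astrocyte markers had a median of 0.24 over 8 genes and oligodendrocyte markers 0.27 over 8 genes, each with 1 gene called higher. Immediate early genes, which neurons induce on firing and calcium entry, had a median of -0.40 over 20 genes, of which 9 were called lower and 0 higher. Over all probe sets 0.698% were called higher and 0.0991% lower. These lists were written with results of the same arrays known, so their counts are no independent evidence, and their part in the channel genes was not tested.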

How the data were processed

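OB RNA of 3 Tg2576 and 3 WT mice was measured on Affymetrix Clarion S arrays, 1 per mouse. The authors deposited log2 values per probe set, normalized by RMA (version not given in the sources used here). They were used as deposited. Of 28815 probe sets, 6609 controls were left out. Groups came from the sample titles. Genes were named by the platform's symbol table, with the set of highest mean per gene.

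Genotypes were compared with limma 3.58.1 (R 4.3.3) over 22206 probe sets, with 8.47 degrees of freedom. The threshold on p (0.01, unadjusted) is that of the study's methods, and the folds (1.3 and 0.7) are from its list of results. The fit was tested on simulated data. Figures used matplotlib 3.10.9 (Python 3.11.15).

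Named genes were all with an unadjusted p under 0.05, the 5 highest and 5 lowest differences, fixed neuronal subunits, and partners with p under 0.01. Other genes were named after their values were seen. Members and lists were chosen with earlier results of these data known. Alternatives were limma-trend, array weights, further normalizations, filters, a replicate block, fold and p rules, and each array left out.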

Additional observations from a re-analysis of the deposited data

How the results depend on the processing

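The count of channel genes called higher or lower was 0 in each direction under every alternative run: limma-trend, array weights, quantile, cyclic loess and median normalization, a minimum mean of 6 per probe set, sets with 1 gene symbol only, the replicate block, each array left out, no fold threshold, a reciprocal lower fold threshold of 0.769 and Benjamini-Hochberg adjustment. The count of channel genes with an unadjusted p under 0.05 was less stable. It was 3 as reported, 7 with limma-trend, 0 with the replicate block, and 0 to 4 when 1 array was left out. It was 0 without Tg2576 replicate 2, WT replicate 2 or WT replicate 3 and 1 without Tg2576 replicate 1. Without Tg2576 replicate 3 it was 2, and without WT replicate 1 it was 4. Of all probe sets, 8.54% had such a p as reported, 8.66% with limma-trend and 7.72% with the replicate block. With 1 array left out this share was 6.74% to 9.97%. The median difference of the channel genes ranged from -0.019 to 0.041 without 1 array, so its sign depended on the array left out, and it was -0.0020 after median centring. Scn1a changed sign after quantile normalization (-0.019), cyclic loess (-0.0094) and median centring (-0.0053). Without 1 array, the range crossed 0 for Scn1a (-0.012 to 0.047), Scn2a (-0.019 to 0.096), Cacna1g (-0.17 to 0.040), Cacna2d1 (-0.050 to 0.039), Cacnb1 (-0.063 to 0.035) and Cacng2 (-0.019 to 0.11). The estimate kept its sign but moved by over 1.5 times from that of all arrays for Cacna1a (0.019 to 0.15), Cacna1c (-0.071 to -0.020) and Cacna1h (-0.19 to -0.085). So did Cacng8 (0.0078 to 0.12), Scn8a (0.0062 to 0.12) and Scn11a (0.043 to 0.20), beside the genes given in the results. Scn3a ran from -0.22 to -0.15, Cacna1d from -0.22 to -0.14 and Cacna1e from -0.21 to -0.15. Scn2b ran from 0.12 to 0.22, Cacnb4 from 0.082 to 0.16 and Cacng7 from 0.11 to 0.17. Of these 6 limma fits, Scn3a, Cacna1d and Scn2b each had an unadjusted p under 0.05 in 1. Cacna1e had it in 2, and Cacnb4 and Cacng7 in 0. The cause was not tested. The replicate numbers did not pair the arrays, as the deviations of arrays of the same number correlated at 0.036, -0.038 and -0.043. Each gene had 1 probe set, so the lowest-mean set gave no other value. Cacna1f, Scn10a and Scn11a lay below the negative controls, and 1 probe set per gene does not separate splice forms.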
